A study of Mus musculus with 4 samples.

Results

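The 10 genes described here are the metallothioneins Mt1 and Mt2 and 8 genes of iron handling: Hamp, Hamp2, Fth1, Tfrc, Trf, Slc40a1, Slc39a14 and Steap4. They were taken by gene symbol from the platform annotation, which gave 15 of the 45281 probes and 10 of the 19057 genes with a probe. The RNA came from livers of Med1 floxed mice (Med1fl/fl) on the C57BL6/J background, aged 5.5 weeks, after tail vein injection of an adenovirus. Ad-His-Med1 (Ad-Med1 below) carried Med1, a subunit of the Mediator complex that links transcription factors to RNA polymerase II, and Ad-LacZ carried bacterial beta-galactosidase and served as the control. Livers were taken at day 3 or day 5, which makes 4 groups with 1 array each; all 4 carry the floxed alleles, and the labels name no Cre. The labels give neither the sex of the mice nor whether an array holds 1 animal or a pool, and a liver array reads all cells of the organ together, so that fewer cells of a type and less RNA per cell cannot be told apart.

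Metallothioneins are small cysteine-rich proteins that bind zinc and copper, and their genes are switched on by metals through the factor MTF1, by glucocorticoids and by inflammation. The liver also sets iron balance for the whole body: hepatocytes secrete hepcidin, the peptide hormone that makes cells degrade the iron exporter ferroportin. Hepcidin transcription answers to bone morphogenetic protein (BMP) signals that report iron stores and to interleukin 6 acting through STAT3, and the messengers of the transferrin receptor and ferritin are controlled by iron regulatory proteins.

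The metallothionein and hepcidin genes each form a neighbouring pair in the mouse genome (GRCm38.p6). Mt2 lies on chromosome 8 from 94172618 to 94173567 and Mt1 follows 5315 bases later, from 94178883 to 94180327. Hamp2 lies on chromosome 7 from 30922372 to 30924181, and Hamp, 18186 bases away, from 30942368 to 30944029. The promoters of both pairs are shown because the members of each pair are read side by side below. Each window runs from 250 bases before to 50 after an annotated start, 5′ to 3′ on the gene's strand, as given by RefSeq for GRCm38.p6. Of the 10 genes, 7 had a window (Mt1, Mt2, Hamp, Hamp2, Fth1, Tfrc and Steap4). In the metallothionein windows, capitals mark the core letters of the metal response element, TGCACNC or TGCGCNC on either strand. The Mt1 window (chr8:94178839-94179138, plus strand) belongs to a start that lies inside the annotated gene, at 94179089.
Mt1: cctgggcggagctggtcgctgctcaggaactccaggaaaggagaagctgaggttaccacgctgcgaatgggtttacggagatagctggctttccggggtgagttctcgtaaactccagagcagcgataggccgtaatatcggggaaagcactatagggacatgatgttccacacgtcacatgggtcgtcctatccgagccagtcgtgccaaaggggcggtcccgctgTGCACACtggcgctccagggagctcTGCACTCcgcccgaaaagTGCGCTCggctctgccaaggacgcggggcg
Mt2: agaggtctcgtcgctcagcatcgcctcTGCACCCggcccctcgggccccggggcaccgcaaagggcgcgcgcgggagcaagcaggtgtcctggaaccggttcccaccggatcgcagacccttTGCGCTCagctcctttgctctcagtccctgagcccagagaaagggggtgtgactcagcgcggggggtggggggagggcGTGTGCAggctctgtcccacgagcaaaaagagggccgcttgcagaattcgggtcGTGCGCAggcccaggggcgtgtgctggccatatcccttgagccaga
The Mt2 window is chr8:94172368-94172667 on the plus strand. Mt1 held 3 matches and Mt2 4. At least 1 match stood in 25.7% of all 32817 windows and 3 or more matches in 1.97%.

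In the hepcidin windows (Hamp at chr7:30943980-30944279 and Hamp2 at chr7:30924132-30924431, both on the minus strand), capitals mark the BMP response element GGCGCC and the STAT site TTCNNNGAA.
Hamp: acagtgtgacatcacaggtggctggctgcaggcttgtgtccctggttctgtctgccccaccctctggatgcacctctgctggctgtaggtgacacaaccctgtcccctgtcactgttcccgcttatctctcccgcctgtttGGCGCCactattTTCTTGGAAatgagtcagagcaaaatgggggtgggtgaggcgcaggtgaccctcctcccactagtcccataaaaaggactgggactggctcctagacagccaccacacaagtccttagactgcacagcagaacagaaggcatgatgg
Hamp2: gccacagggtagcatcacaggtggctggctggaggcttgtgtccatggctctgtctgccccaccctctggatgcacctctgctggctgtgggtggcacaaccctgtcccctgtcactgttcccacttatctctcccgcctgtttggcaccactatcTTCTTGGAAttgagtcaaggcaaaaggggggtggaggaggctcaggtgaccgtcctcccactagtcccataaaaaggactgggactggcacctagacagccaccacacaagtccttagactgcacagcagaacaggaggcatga
Over 297 aligned bases both windows were 92.9% identical. Each held 1 STAT site, at 97 bases before the start in Hamp (position -97) and at position -94 in Hamp2. The letters of the BMP response element stood in the Hamp window at position -109 and not in the Hamp2 window. STAT site letters occurred in 8.29% and BMP element letters in 11.9% of all windows. Of the other windows, Steap4 held STAT letters, Tfrc held the BMP element and metal response core letters that overlap on opposite strands, and the Fth1 windows held none of the motifs searched. The remaining motifs were the antioxidant response element TGACNNNGC (in 12.4% of windows, and in Mt2) and the glucocorticoid response element ACANNNTGT (in 6.85%, and in Mt1). A match is a description of letters, not of a bound site.

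**Figure D1:**
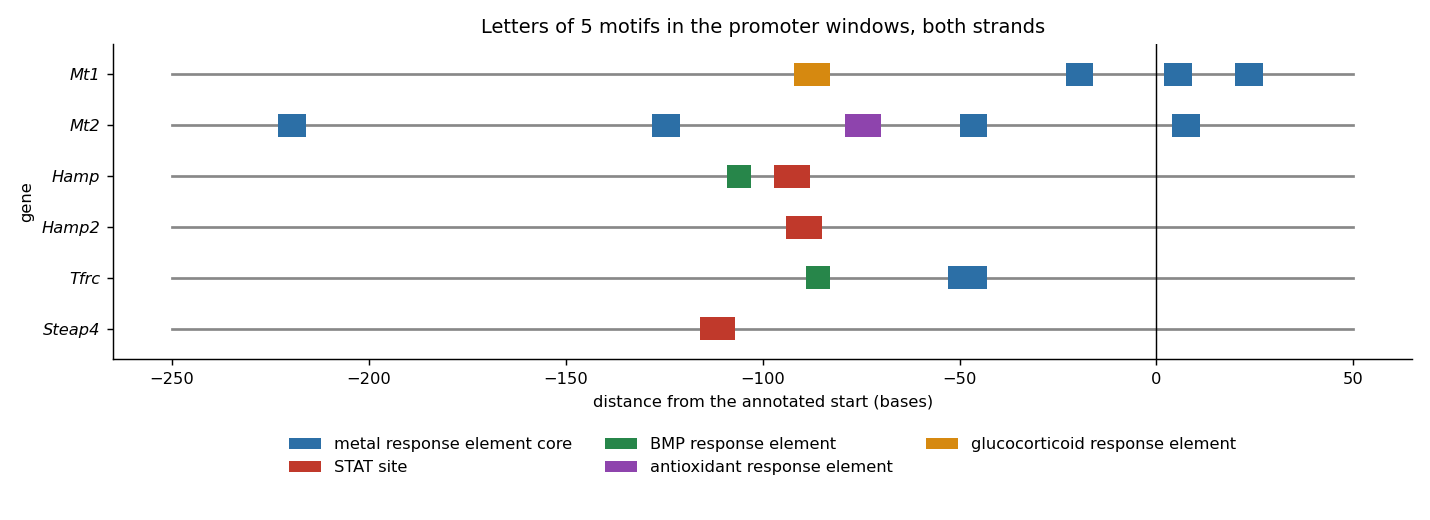
Promoter windows of 6 of the genes, with distance from the annotated start in bases on the x axis and coloured blocks for the letters of 5 motifs on either strand. Metal response core letters stand in Mt1 (3), Mt2 (4) and Tfrc, and the BMP element stands in Hamp and not in Hamp2.

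The arrays differed in brightness: the mean probe intensity with Ad-LacZ was 350.2 at day 3 and 475.4 at day 5, and with Ad-Med1 it was 924.9 and 967.7. Probes at the detector's limit are not marked in the table. Values below are therefore log2 signals after neqc, which removes background and gives all arrays the same distribution, and a probe counts as detected at a detection p-value under 0.01. Med1, the gene carried by the virus, read 11.16 (day 3) and 12.22 (day 5) with probe ILMN_2658227 after Ad-Med1, and that probe was undetected after Ad-LacZ. Of its other 4 probes 2 were undetected throughout, and 2 read Med1 on all arrays: ILMN_3106388 differed by 2.08 and 2.19, and ILMN_1220563 by 1.99 and 0.20. The Ad-LacZ arrays differed from each other at least 2-fold in 18.6% of genes, and the Ad-Med1 arrays in 7.93%. Transcripts of the sex chromosomes and markers of Kupffer and red cells differed between arrays of a virus. Sex-linked transcripts also differed between the viruses within each day, and that holds for every gene compared here. These values are given below beside some of the genes, and their part was not tested. Of 7 hepatocyte markers, 5 were detected on every array, Tat was detected on none, and Alb was not detected on Ad-LacZ day 3.

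Of the 10 genes, 8 were detected on all 4 arrays with their brightest probe, which stands for the gene below. Slc39a14 and Steap4 were near background, and 3 of the 15 probes, the second ones of Slc40a1, Slc39a14 and Steap4, were detected on no array. In the list, 5 genes had 1 probe and 5 had 2. With 1 array in a group no difference at a day has a replicate check, and none has an SD or a p-value. Tests used both days together, in limma with virus and day as terms. Their only residual is how far the virus effects of day 3 and day 5 disagree, moderated over all genes. So the SE and p-values measure that disagreement, which may be technical, and not a spread between replicates.

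**Figure D2:**
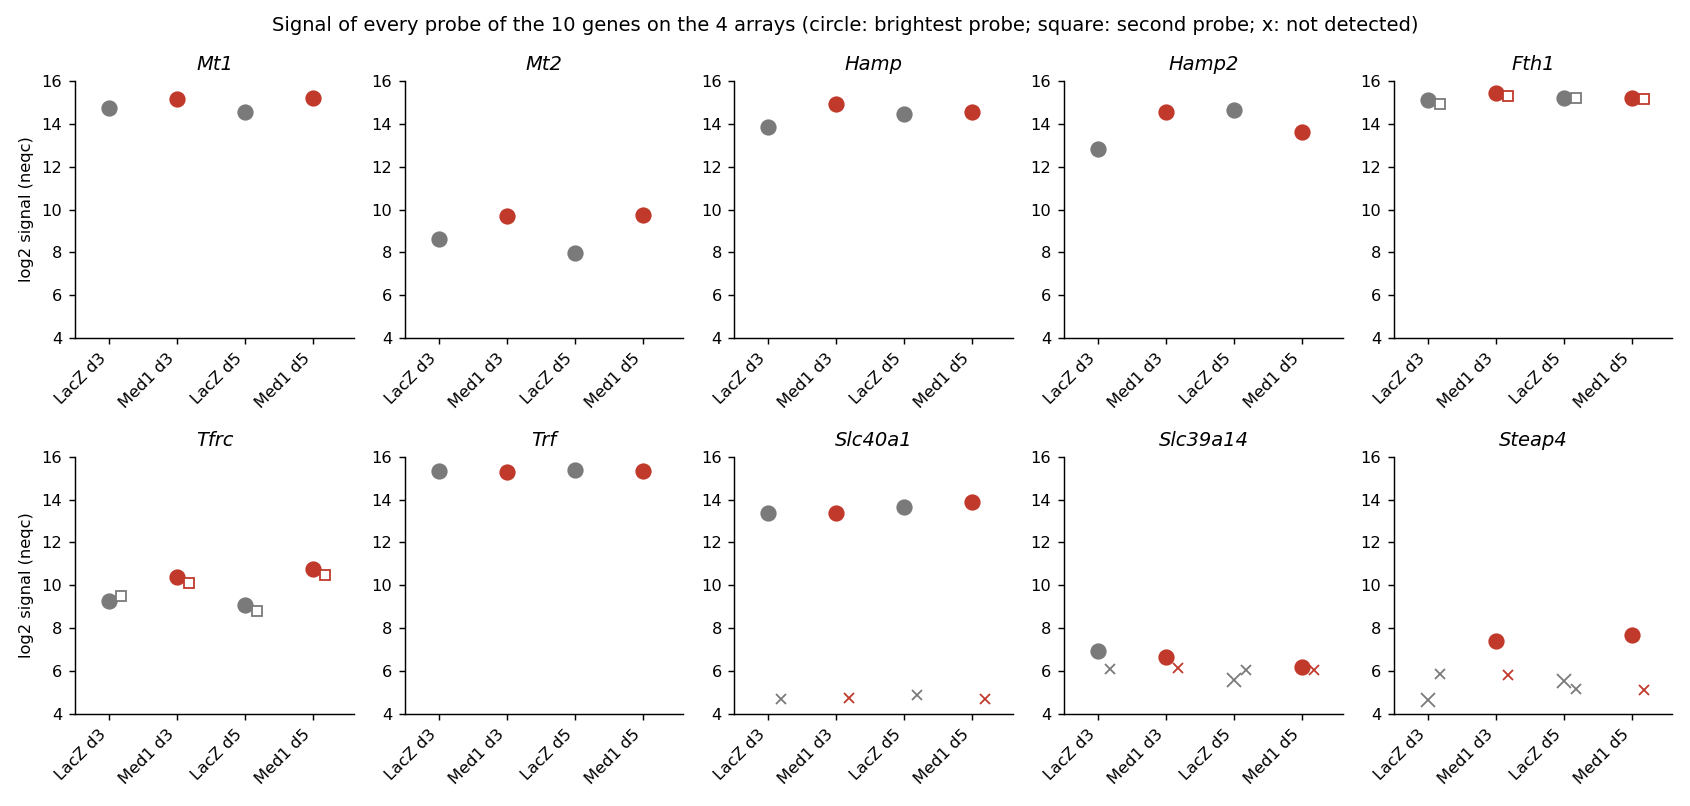
Log2 signal (y axis) of every probe of the 10 genes on the 4 arrays (x axis), with Ad-LacZ in grey and Ad-Med1 in red. Circles are the brightest probe, squares the second and crosses undetected probes. By the brightest probe Mt2 and Tfrc read at least 2-fold higher after Ad-Med1 on both days, and Steap4 was undetected on both Ad-LacZ arrays. Trf and Fth1 lie near the top of the scale on all 4.

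Among the 10 genes, Mt2, Tfrc and Steap4 read at least 2-fold higher after Ad-Med1 on both days. That is 3 of 10, beside 3.45% of the 8747 genes tested on both days (3.42% were lower on both, and none of the 10). At day 3 the Steap4 call rests on an undetected control value, and its lower bound is 1.52-fold. Quantile normalization without background correction left Mt2 at 0.86 and Tfrc at 0.96 on the log2 scale at day 3, just under 2-fold, and Steap4 at 0.88 at day 5. The mean of both Tfrc probes at day 3 was 0.85. At day 3, 5 of the 10 genes were at least 2-fold higher (Mt2, Hamp, Hamp2, Tfrc and Steap4) and none lower, where 29.4% of 9052 genes tested passed that size in either direction, 17.4% being higher. At day 5, 3 were at least 2-fold higher and none lower, where 17.9% of 9261 genes passed in either direction, 10.2% being higher and 7.68% lower. The median difference of the 10 genes was 0.74 at day 3 and 0.43 at day 5 on the log2 scale, beside -0.03 and 0.07 over all genes tested. The genes were chosen with results of these data known, so these shares describe the choice and are no evidence of a common response.

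Over both days none of the 10 genes passed the limma test after Benjamini-Hochberg adjustment over 9566 genes, and 0.0% of all genes did; the smallest adjusted p over all genes was 0.366. At an unadjusted limma threshold of 0.05, 1295 genes (13.5%) passed, among them Steap4, Tfrc and Mt2.

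Both metallothioneins read higher after Ad-Med1 on the neqc scale, but Mt1, whose probe lay near the top of the signal range, stood below the median of all genes under another scaling given below. Mt2, which binds zinc and copper, read 8.62 on Ad-LacZ and 9.71 on Ad-Med1 at day 3. At day 5 it read 7.98 on Ad-LacZ and 9.73 on Ad-Med1. Both Ad-Med1 values lay above both Ad-LacZ values, and the Ad-Med1 values differed from each other by 0.03, those of Ad-LacZ by 0.64. How many of all genes separate in this way was not counted, so the separation is a description only. Mt2 was thus 2.13-fold higher at day 3 and 3.37-fold at day 5, and the limma effect over both days was 1.42 ± 0.34 (SE, n = 2 arrays per virus; limma adjusted p = 0.366). Before normalization its intensity was 194 and 182 on the Ad-LacZ arrays and 1467 and 1534 on the Ad-Med1 arrays, or 7.56-fold and 8.42-fold higher. The Ad-Med1 arrays were brighter as a whole, so these ratios are larger than the normalized ones.

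Mt1, its neighbour and the more widely studied inducible metallothionein, read 14.76 on Ad-LacZ and 15.16 on Ad-Med1 at day 3, and 14.57 and 15.20 at day 5. It was thus higher after Ad-Med1 by 0.39 at day 3 and 0.63 at day 5 (1.31-fold and 1.55-fold). The limma effect was 0.51 ± 0.30 (SE; limma adjusted p = 0.474). The Mt1 probe was among the brightest of the array, ranking 85 (day 3) and 122 (day 5) after Ad-LacZ, and 31 and 26 after Ad-Med1. Its intensity reached 88.7% and 89.7% of the highest probe on the Ad-Med1 arrays. Scaling the deposited values to a common array median instead put the median difference of all genes at 1.02 at day 3 and 0.85 at day 5, where neqc had -0.03 and 0.07. Relative to that median Mt1 stood at -0.50 and -0.71, opposite to its direction after neqc, whereas Mt2 stood above it at 1.18 and 1.49.

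The genes whose 4 values run most like those of Mt1, among 7191 genes detected on all 4 arrays, were Gpx4, Kpna1 and Pcbp1. Their root mean square distances from Mt1, after centring each gene on its own mean over the 4 arrays, were 0.012, 0.022 and 0.023 on the log2 scale. Gpx4, a glutathione peroxidase that repairs oxidised lipids, read 13.47 (day 3) and 13.27 (day 5) with Ad-LacZ, and 13.88 and 13.89 with Ad-Med1. Over 4 arrays many genes can share such a pattern.

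Hamp differed between the viruses at day 3 and hardly at day 5, while Hamp2 differed at both days in opposite directions. Hamp, the hepcidin gene that governs systemic iron, read 13.85 on Ad-LacZ and 14.94 on Ad-Med1 at day 3. At day 5 it read 14.44 and 14.54. The low array was Ad-LacZ day 3, and the other 3 lay between 14.44 and 14.94. Hamp was 2.13-fold higher at day 3 and 1.07-fold at day 5, and the effect over both days was 0.59 ± 0.39 (SE; limma adjusted p = 0.507). Against the Ad-LacZ array of day 5, the Ad-Med1 array of day 3 was higher by 0.50. Relative to all genes the day 3 difference was 1.12 and shrank to 0.49 with median scaling of the deposited values and to 0.04 with normexp and median scaling. The Hamp probe reached 82.5% of the array maximum on Ad-Med1 day 3, against 20.3% on Ad-LacZ day 3.

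Hamp2, the second mouse hepcidin gene, gave opposite differences at both days. It read 12.81 on Ad-LacZ and 14.57 on Ad-Med1 at day 3, which is 3.40-fold higher after Ad-Med1. At day 5 it read 14.63 on Ad-LacZ and 13.64 on Ad-Med1, or 1.99-fold lower after Ad-Med1. Ad-LacZ day 3 and Ad-LacZ day 5 were thus the lowest and the highest of the 4 arrays, and the virus groups overlapped. The effect over both days was 0.39 ± 0.78 (SE; limma adjusted p = 0.822), the largest error among the 10 genes. Fits on 3 arrays have virus as their only term: the effect was -0.53 without the Ad-LacZ array of day 3 and 1.30 without that of day 5, where the virus term alone on all 4 arrays gave 0.39. With the control of the other day the differences were -0.06 for Ad-Med1 day 3 and 0.83 for Ad-Med1 day 5. No probe sequences were at hand, so whether the Hamp and Hamp2 probes each read only their own transcript was not checked.

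Sex-linked transcripts differed between the same arrays, and hepcidin expression in mice is known to vary with sex and strain. None of the 4 probes for Xist, the RNA that coats the silenced X chromosome, was detected on Ad-LacZ day 3, where Hamp2 was lowest, and all 4 were detected on each other array. Eif2s3y, a gene of the Y chromosome, read 9.52 on Ad-LacZ day 3 and 10.54 on Ad-Med1 day 5 with probe ILMN_1241001 and was not detected on Ad-Med1 day 3 or Ad-LacZ day 5, so that Ad-Med1 day 5 held both transcripts. Hamp2 was thus lower on both arrays with Eif2s3y (12.81 and 13.64) than on both without it (14.57 and 14.63). Hamp was low on only 1 of the arrays with Eif2s3y, at 13.85 and 14.54 against 14.94 and 14.44. Within a day this difference between the arrays cannot be told apart from the virus, and its part in the hepcidin values was not tested.

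**Figure D3:**
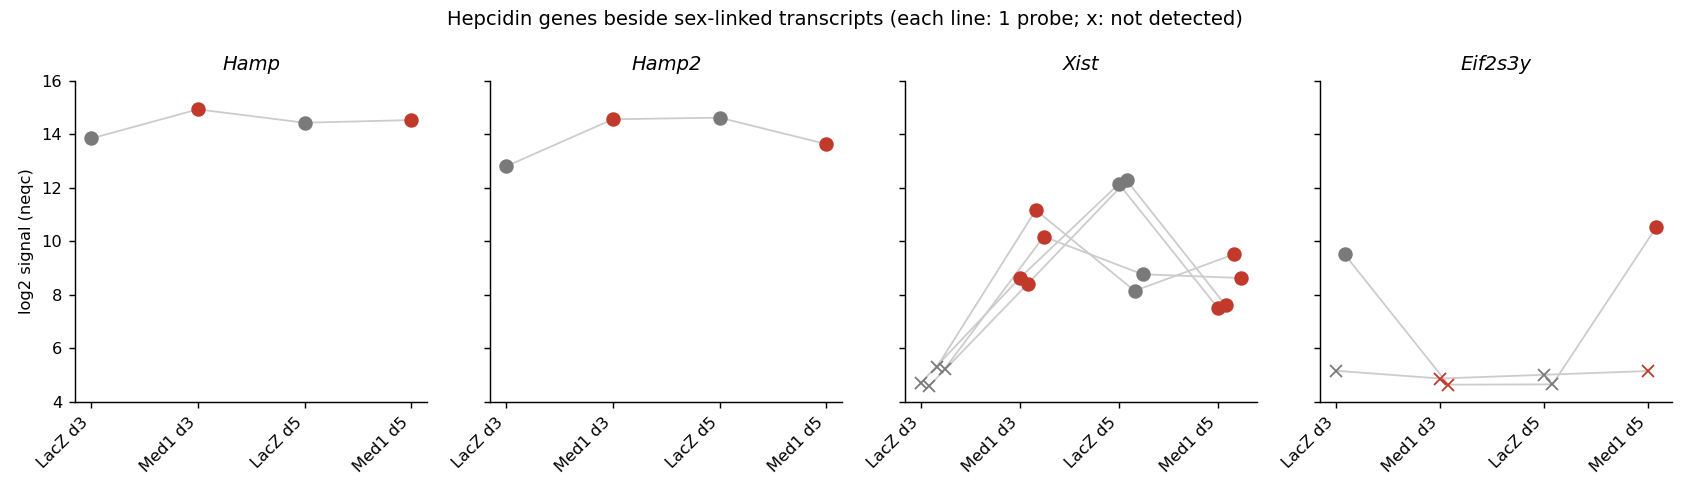
Log2 signal (y axis) of Hamp, Hamp2, the 4 Xist probes and the 2 Eif2s3y probes on the 4 arrays (x axis), with crosses for undetected probes. Hamp2 is highest on Ad-Med1 day 3 (14.57) and Ad-LacZ day 5 (14.63), the arrays on which Eif2s3y was not detected.

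The genes nearest to Hamp in their 4 values were Gypc, Eif1ad and Ddx20, at distances of 0.039, 0.049 and 0.057. Gypc, a glycophorin of the red cell membrane, read 8.08 and 8.69 on the Ad-LacZ arrays and 9.27 and 8.83 on the Ad-Med1 arrays. The summed signal of 9 red cell markers, given below, was lowest on Ad-Med1 day 3, where Gypc was highest. As for Mt1, many genes can share such a pattern over 4 arrays, and the same holds for the genes named beside Tfrc.

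The transferrin receptor was higher after Ad-Med1 on both days with both of its probes. Tfrc, which takes up iron-laden transferrin and is abundant on dividing cells and red cell precursors, read 9.28 on Ad-LacZ and 10.39 on Ad-Med1 at day 3 with probe ILMN_2860804. At day 5 it read 9.09 and 10.74. With probe ILMN_2619848 it read 9.51 and 10.10 at day 3, and 8.82 and 10.50 at day 5. The virus groups did not overlap on either probe, but the share of all genes that separate in this way was not counted. The first probe was 2.16-fold higher at day 3 and 3.14-fold at day 5. The second differed at day 3 by 0.59 (log2), short of 2-fold, and was 3.20-fold higher at day 5. The effect over both days was 1.38 ± 0.33 (SE; limma adjusted p = 0.366). Relative to all genes, Tfrc stood between 0.87 and 1.38 at day 3 and between 1.40 and 1.77 at day 5 over 9 other processings. With the control of the other day it was higher by 1.30 and 1.46.

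Red cell markers also differed between the arrays. The summed signal of 9 measured markers was 78400 on Ad-LacZ day 3, 3360 on Ad-Med1 day 3, 54700 on Ad-LacZ day 5 and 69900 on Ad-Med1 day 5, mostly from 3 globin genes. It was lowest on Ad-Med1 day 3, where Tfrc was high, and at day 5 it was higher on Ad-Med1, as Tfrc was. Of the 9, Ermap, Epb42 and Rhag were detected on no array. The summed signal of 6 T cell markers was 1930 and 1250 on the Ad-LacZ arrays and 2530 and 3740 on the Ad-Med1 arrays, with Cd4 and Cd8a undetected on all 4. Cd8b1 carried most of that sum. Cd3d went the other way at day 3, from 6.82 on Ad-LacZ to an undetected 5.65 on Ad-Med1. Cd3g was undetected on both arrays of day 3 (6.13 and 5.69). At day 5 Cd3d, Cd3e and Cd3g read 7.03, an undetected 5.95 and 6.86 on Ad-LacZ. On Ad-Med1 they read higher, at 8.75, 8.65 and 9.04. The part of red cell or T cell RNA in the Tfrc values was not tested. The genes most like Tfrc were Ipo5, an importin, Hnrnpul2 and the deacetylase Sirt1, at distances of 0.044, 0.058 and 0.064, and Ipo5 read 9.01 and 8.88 on the Ad-LacZ arrays and 10.06 and 10.48 on the Ad-Med1 arrays.

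Transferrin, ferritin heavy chain and ferroportin differed little after neqc. Trf, the plasma iron carrier made by hepatocytes, read 15.32 and 15.37 on the Ad-LacZ arrays and 15.27 and 15.34 on the Ad-Med1 arrays, so that the virus groups overlapped and both days differed by -0.04. Fth1, the ferritin subunit that oxidises iron for storage, read 15.13 and 15.19 on Ad-LacZ and 15.45 and 15.21 on Ad-Med1 with probe ILMN_2876066. Its second probe read 14.92 and 15.22 against 15.32 and 15.18. Both Fth1 probes were higher after Ad-Med1 at day 3, by 0.32 and 0.40, and differed by 0.02 and -0.04 at day 5. The limma effects were -0.04 ± 0.30 for Trf (adjusted p = 0.955) and 0.17 ± 0.31 for Fth1 (adjusted p = 0.80).

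These probes lay at the top of the scale. The first Fth1 probe was the brightest of all probes on Ad-Med1 day 3, and Trf ranked between 5 and 18 on the 4 arrays. On the Ad-Med1 arrays Trf reached 93.1% and 94.0% of the highest intensity. Relative to all genes, Trf stood at -1.44 and -1.78 and Fth1 at -0.91 and -1.61 at day 3 and day 5 after median scaling of the deposited values. The small differences of these probes do not show equal amounts of RNA.

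Ferroportin overlapped between the viruses on the neqc scale. Slc40a1, the exporter that hepcidin targets and that macrophages and hepatocytes both express, read 13.35 on Ad-LacZ and 13.39 on Ad-Med1 at day 3. At day 5 it read 13.63 and 13.90, and the limma effect was 0.16 ± 0.30 (SE; adjusted p = 0.816). Median scaling of the deposited values put its day 3 difference at 0.89, where the median of all genes was 1.02. Relative to all genes it stood between -0.57 and 0.15 at day 3 over 9 other processings. At day 5 that range was -0.82 to 0.28. The summed signal of 12 Kupffer cell markers was 15200 on Ad-LacZ day 3, 2260 on Ad-Med1 day 3, 5940 on Ad-LacZ day 5 and 10100 on Ad-Med1 day 5. At day 3, where Slc40a1 differed by 0.04 after neqc, 11 of the 12 markers were detected on Ad-LacZ and 5 on Ad-Med1. The defining receptors Clec4f, Vsig4 and Timd4 were undetected on that Ad-Med1 array.

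**Figure D4:**
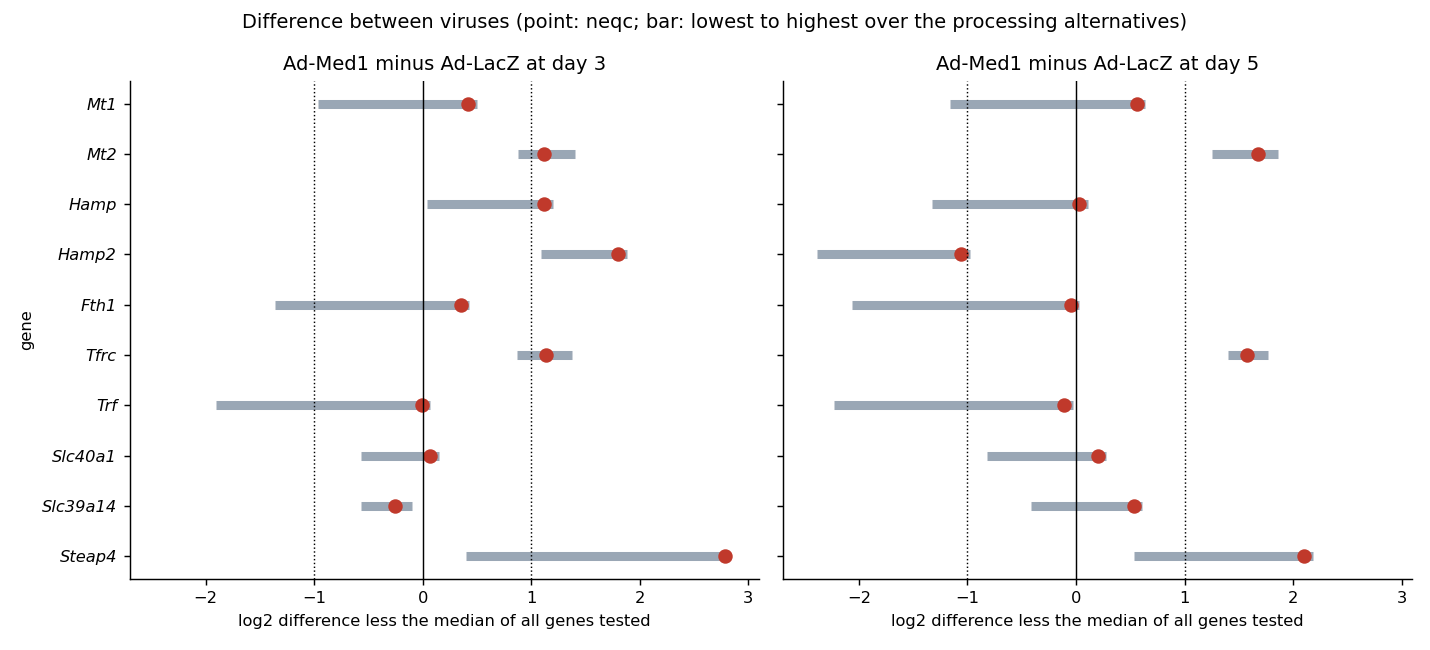
Log2 difference between Ad-Med1 and Ad-LacZ less the median difference of all genes tested (x axis) for the 10 genes (y axis) at day 3 and day 5; points are neqc values and bars run from the lowest to the highest of 8 or 9 other processings. Mt2, Tfrc and Steap4 stay above 0 on both days, and the bars of Mt1, Fth1 and Slc40a1 cross 0 on both.

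The remaining metal uptake genes were dim. Steap4, a metalloreductase that reduces iron and copper and is induced in inflammation, read 7.38 at day 3 and 7.69 at day 5 on the Ad-Med1 arrays with probe ILMN_2657297. On the Ad-LacZ arrays it was not detected, at 4.62 and 5.52. On the neqc scale Ad-Med1 was thus at least 1.52-fold higher at day 3 and at least 2.43-fold at day 5, taking the lowest detected signal of the Ad-LacZ array as the floor. These bounds hold for that scale only, since without background correction the day 5 difference was 0.88. The deposited intensities were 377 and 476 on Ad-Med1 and 79.4 and 106 on Ad-LacZ. The limma effect of 2.47 ± 0.33 (SE; adjusted p = 0.366) rests on undetected values, and its p ranked 41 of 9566. The second Steap4 probe, ILMN_1222640, was detected on no array and differed by -0.03 and -0.05.

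Neutrophil markers ran with Steap4. The summed signal of 8 markers was 831 on Ad-LacZ day 3, 4110 on Ad-Med1 day 3, 1530 on Ad-LacZ day 5 and 6830 on Ad-Med1 day 5. All 8 were detected on Ad-Med1 day 3 and 7 on Ad-Med1 day 5, whereas Ad-LacZ had 2 and 3. The part of these cells in the Steap4 value was not tested.

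Slc39a14, the ZIP14 transporter that brings non-transferrin iron, zinc and manganese into hepatocytes, read 6.94 on Ad-LacZ and 6.66 on Ad-Med1 at day 3. At day 5 it was not detected on Ad-LacZ (5.58) and read 6.19 on Ad-Med1. The viruses overlapped, and the day 5 difference has no lower bound above 1-fold. The limma effect was 0.16 ± 0.38 (SE; adjusted p = 0.845).

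Between the days, values within a virus share arrays with the differences above. Within Ad-Med1, none of the 10 genes differed at least 2-fold between day 5 and day 3 (7.93% of 9267 genes did, 5.02% higher and 2.91% lower at day 5), and Hamp2 came nearest at -0.94. Within Ad-LacZ, 2 of 9 genes tested did (18.6% of 8603 genes did, 12.1% higher and 6.47% lower). Hamp2 was 3.54-fold higher at day 5. Slc39a14 went from 6.94 to an undetected 5.58, but its deposited intensities were 119 and 107, and median scaling of them gave -0.21. Hamp at day 5 stood 0.59 above day 3 in Ad-LacZ and at -0.41 in Ad-Med1, on the log2 scale.

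Lists of surrounding genes, also chosen with earlier results of these data known, were read in the same way. Their counts beside the shares of all genes describe the choice and are no evidence of a common response. No gene of the 8 lists passed the limma test after adjustment over all genes, so sizes are given as values. In the iron uptake, storage and export list, 2 of 17 genes tested on both days were at least 2-fold higher on both and none lower, beside 3.45% and 3.42% of all genes. They were Lcn2, the siderophore-binding lipocalin, higher by 1.21 and 1.71 on the log2 scale, and Ltf, the iron-binding lactoferrin of neutrophil granules, at least 3.29-fold higher at day 5. Ltf was not detected on Ad-LacZ at either day, and its day 3 difference has no lower bound above 1-fold. The list median was 0.20 at day 3 and 0.48 at day 5.

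Zinc genes were mixed. Slc39a6, a plasma membrane zinc importer, was higher by 1.46 at day 3 and 1.90 at day 5. It was the only gene of 16 tested that was at least 2-fold higher on both days, beside 3.45% of all genes. None was at least 2-fold lower on both days, beside 3.42% of all genes. Slc30a10, a manganese exporter, was lower by 1.51 at day 3 (-1.51) and stood at -0.88 at day 5, and its other detected probes were lower too (-0.84 and -0.66 at day 3, -1.94 and -1.63 at day 5). Mtf1, the metal-sensing factor that drives metallothionein transcription, differed by -0.08 and -0.32. The list median was -0.08 and -0.36.

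Among regulators of hepcidin, the BMP and SMAD list had 6 of 14 genes past 2-fold at day 3, all higher, and none at day 5, with medians of 0.88 and 0.39. Over all genes 17.4% were higher at day 3 and 10.2% at day 5. Id1, a direct target of BMP signalling, was higher by 2.50 at day 3 and 0.75 at day 5. Bmpr1a, a type I BMP receptor, was higher by 2.38 and 0.47, and its second probe by 0.66 and 0.23. Tmprss6, the protease that dampens this signal, stood at -0.39 and -0.73. These day 3 values were read against the same Ad-LacZ day 3 array on which Hamp and Hamp2 were lowest.

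The interleukin 6 list had medians of 0.24 and 0.44, and of its 11 genes 2 were higher and 2 lower by 2-fold or more at day 3, and 4 higher at day 5. Over all genes 29.4% passed in either direction at day 3, and at day 5 10.2% were higher. Jak1, a kinase of cytokine receptors, was at least 5.90-fold higher at day 3 and stood at -0.14 at day 5. Il6ra, the interleukin 6 receptor, was 5.94-fold lower at day 3 and stood at -0.32 at day 5, where its other probes read 0.12 and 0.14. Il6 itself was not detected on any array at either day. The 4 higher at day 5 were Jak2 (1.16), Socs3 (1.26), Il1b (1.04) and Cebpb (1.65). At day 3 these stood at 0.35, 0.84, -1.97 and 0.24. In the haem list, Hmox1, the oxygenase that frees iron from haem, was 1.27-fold higher at day 3 and 4.93-fold at day 5. Uros, an enzyme of haem synthesis, was lower on both days, at -0.76 and -1.12, as were its other detected probes (-1.80 and -1.87 at day 3, -0.78 and -0.74 at day 5).

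The 3 iron regulatory proteins or their regulators had a median of 1.04 at day 3 and 0.43 at day 5. Aco1, the iron regulatory protein that doubles as cytosolic aconitase, was higher by 1.56 and 0.51, and Ireb2 by 0.97 and 0.43, with 0.31 and -0.09 on its second probe. The glucocorticoid list had 9 genes tested, among them the receptor gene Nr3c1 (0.76 at day 3 and 0.42 at day 5) beside targets. Pck1, which starts gluconeogenesis, was 4.75-fold and 2.85-fold higher, and the clock gene Per1 2.09-fold and 18.7-fold. These 2 of the 9 passed 2-fold upward at each day, as 3.45% of all genes did. None of the 9 passed downward at each day, beside 3.42% of all genes. Pck1 and Per1 each had a second detected probe, which was higher by 0.56 and 1.97 for Pck1 and by 0.36 and 3.49 for Per1. As many of the 9 were 2-fold lower at day 3 as higher, 2 each, the lower ones being Zbtb16 (-2.69) and Sgk1 (-1.12); at day 5 4 were higher and none lower. Klf9 stood at -0.91 and -0.70. That list's median was -0.26 at day 3 and 0.98 at day 5. Copper genes had medians of -0.11 and 0.24, with Atox1, a copper chaperone, at -1.40 and -0.57 and the exporter Atp7a at least 1.99-fold lower at day 3 and at 0.38 at day 5.

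**Figure D5:**
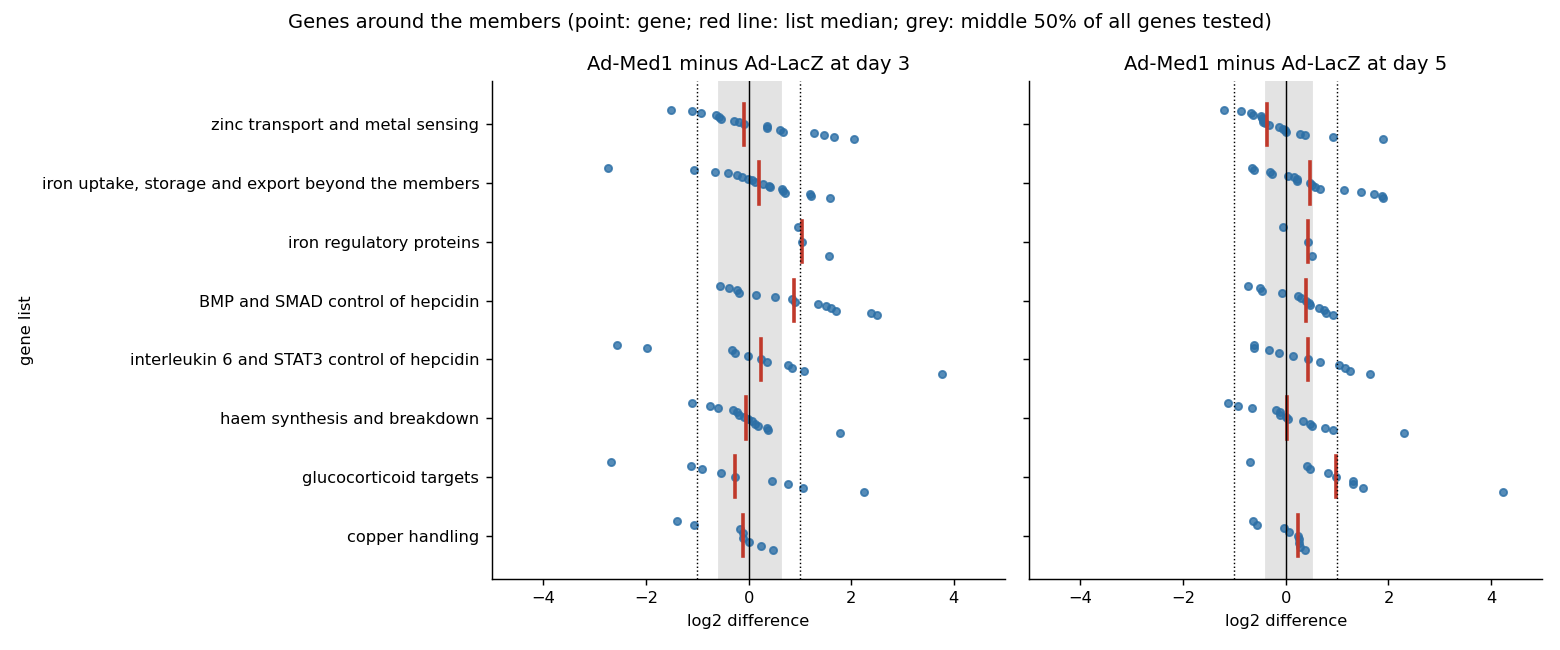
Log2 difference between Ad-Med1 and Ad-LacZ (x axis) at day 3 and day 5 for the genes of 8 lists (y axis); each point is a gene detected on at least 1 array of that day, red lines are list medians and the grey band runs from the lower to the upper quartile of all genes. The BMP and SMAD list has medians of 0.88 at day 3 and 0.39 at day 5, and the zinc list -0.08 and -0.36.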

How the data were processed

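Per the file headers, the authors deposited a table, not normalized, with a linear intensity and a detection p-value for 45281 probes on each of 4 arrays. The deposited series values equalled these intensities (largest difference 0). Scanner software is not stated in the labels or headers. The neqc function of limma (version 3.58.1, R 4.3.3) corrected background with an offset of 16, then applied quantile normalization and log2. Gene symbols came from the platform annotation and were brought up to date by gene identifier (GRCm38.p6) for 34807 of 34885 probes with 1 symbol; 18 had several and 10378 none. The probe with the highest mean signal stands for a gene. A gene was tested if detected on at least 1 array compared and called at 2-fold. The limma fit had virus and day as terms, with 1 residual and 2.69 prior degrees of freedom. Simulated data with large changes, the same small noise for all genes and no difference between days checked its code only. They do not show how well it suits these arrays. A fold against an undetected signal is a bound, taken from the higher of that signal and the array's lowest detected one. The number of arrays limits the precision. Python 3.11.15, numpy 2.4.6, pandas 2.3.3 and matplotlib 3.10.9 did the rest.

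The members and lists were chosen with earlier results of these data known. Named from each list were up to 3 genes at least 2-fold apart in 1 direction on both days, filled to 2 by mean difference. The 3 genes nearest to Mt1, Hamp and Tfrc were named too. Mtf1, Tmprss6, Il6, Jak2, Socs3, Il1b, Cebpb, Nr3c1, Zbtb16, Sgk1, Klf9 and marker genes were added after their values were seen. Alternatives covered scaling, background, offset, detection, probe choice, control array, the day term and leaving out arrays.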

Additional observations from a re-analysis of the deposited data

Results flagged for a closer look

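The virus difference of Hamp2 went opposite ways at the 2 times: it was 1.77 at day 3 and -0.99 at day 5 on the log2 scale, with 1 array on each side. The change between the times was not tested, since a group holds 1 array. Eif2s3y and Xist differ between the same arrays, and their part was not tested.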

How the results depend on the processing

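Of 502 values of the 10 genes under alternatives, 31 had the opposite sign; the causes were not tested. Of the 364 that are differences between 2 arrays, 12 lost 2-fold and 9 gained it, and of the 138 virus effects 7 newly passed the limma test. Genes at least 2-fold apart numbered 2661 at day 3, 1654 at day 5, 735 between days in Ad-Med1 and 1599 in Ad-LacZ. With median scaling of the deposited values they numbered 4677, 3791, 375 and 654, without background correction 1318, 657, 265 and 667, and among genes detected on all 4 arrays 1485, 945, 325 and 776. With normexp and median scaling they numbered 5266 at day 3 and 4383 at day 5, and with the control of the other day 1444 and 2750. The share higher was 59.2% at day 3 and 57.0% at day 5. It was 99.4% and 98.8% under median scaling, and 97.4% and 95.0% under normexp with median scaling; both put the median of all genes well above 0, though bright genes such as Trf and Fth1 read lower there than after neqc. Among genes detected on all 4 arrays it was 47.9% at day 3. Between the days in Ad-LacZ it was 65.2%, against 89.1% under both median scalings and 80.7% without background correction. Of the 10 genes, 3 in place of 5 passed at day 3 without background correction, and 7 in place of 3 at day 5 with normexp and median scaling. Between the days in Ad-LacZ 1 in place of 2 passed without background correction, with an offset of 50, with undetected values at the lowest detected one, and among genes detected on all 4 arrays.

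Genes past the adjusted limma threshold numbered 0, against 5437 under median scaling and 1729 under normexp with median scaling. Leaving out 1 array also drops the day term, since virus and day on 3 arrays leave no residual degree of freedom. Such fits gave 0 to 413, the 413 without Ad-LacZ day 5, where all 4 arrays without the day term gave 0. A lone array is assumed there to vary like the other virus's arrays. Mt2 (2.27), Tfrc (2.50) and Steap4 (1.40) passed under median scaling (limma adjusted p = 0.0129), as did 5437 of all 9566 genes. Under normexp with median scaling they passed at 2.65, 2.60 and 2.70 (limma adjusted p = 0.0472), among 1729 genes. Both scalings put the median of all genes above 0. Under median scaling Steap4 stood only 0.40 above that median at day 3 and 0.53 at day 5. Steap4 was past the threshold without Ad-LacZ day 5 (2.91, limma adjusted p = 0.0385), but against a single, undetected control value, which says nothing about stability. The virus effect changed sign for Fth1 under median scaling (-0.33) and normexp with median scaling (-0.69), for Mt1 under the latter (-0.03), and for Slc39a14 with undetected values at the lowest detected one (-0.25). Leaving out 1 array gave Hamp2 -0.53 to 1.30, Slc40a1 -0.10 to 0.41 and Slc39a14 -0.52 to 0.84. Hamp2 at day 3 was -0.06 against the control of the other day. No paired analysis was possible because each group has 1 array and the labels carry no replicate numbers.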
